A study of Mus musculus with 4 samples.

Results

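The genes described here are those that encode the subunits of the ionotropic and metabotropic glutamate receptors and of the GABA-A and GABA-B receptors. They were chosen by gene symbol alone, and 47 of the 46320 gene identifiers in the RNA tables matched: 26 glutamate receptor genes (4 AMPA, 5 kainate, 7 NMDA, 2 delta and 8 metabotropic) and 21 GABA receptor genes (16 GABA-A, 3 GABA-A rho and 2 GABA-B). Of these, 43 are autosomal and 4 are X-linked, namely Gria3, Gabra3, Gabre and Gabrq. All data came from the prefrontal cortex of 14-week-old female F1 mice, labelled C57BL6J/Spretus, that carried a mutation of the noncoding RNA gene Xist on the maternal allele. There was 1 group, with 2 RNA-seq and 2 MethylC-seq libraries, and no wild-type or reciprocal cross. Per the labels' protocols, RNA and DNA were isolated from tissue pooled over 2 individuals of separate litters. No label ties an RNA library to animals of its own, and a p-value here reflects the spread of 2 libraries that may be technical. MethylC-seq reads the methylation of cytosines after bisulfite conversion. Reads of both assays were separated by parental sequence, so the comparison is between the C57 and the Spretus allele within the same tissue. C57 was taken as the mother from the order of the strains in the label. With no reciprocal cross, an autosomal difference by strain cannot be told apart from one by parent.

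Glutamate is the main excitatory and GABA the main inhibitory transmitter of the cortex. AMPA, kainate and NMDA receptors are cation channels built from several subunits, delta receptors act as synaptic organisers that bind cerebellin, and metabotropic receptors act through G proteins. GABA-A receptors are chloride channels, usually built from alpha and beta subunits with a gamma or a delta subunit, and the genes of these subunits stand in clusters on a few chromosomes. GABA-B receptors are G protein coupled pairs of the products of Gabbr1 and Gabbr2. The X chromosome on which Xist is active is silenced in female cells, and a cell that cannot use Xist on the maternal X silences the paternal one.

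RNA library 1 held 4768237 allele-assigned reads and RNA library 2 held 1291903. Xist came from the Spretus allele, with 31 C57 and 2158 Spretus reads in library 1 and 9 and 795 in library 2. FPKM, fragments scaled to transcript length and library size, was a median of 5.68 times higher in library 1 over 21293 genes above 0 in both. The ribosomal RNA related Yam1 and Rn18s-rs5 made up 24.5% of all summed FPKM in library 1 and 79.7% in library 2, so deposited FPKM levels are compared between genes within a library, and between libraries only after scaling by that median. Of 14 marker lists, 8 had a median FPKM of at least 1 in each library. The pan-neuronal list had medians of 455 and 107, the excitatory list 25.0 and 6.43, the inhibitory list 73.1 and 13.4, the astrocyte list 29.5 and 4.64, the oligodendrocyte list 63.9 and 7.35, the microglial list 19.2 and 2.49, the endothelial list 10.8 and 1.90 and the blood list 87.1 and 5.23. The precursor and striatal lists had medians of 5.71 and 0.975 and of 3.74 and 0.511. The cerebellum, olfactory bulb, choroid plexus and retina lists had medians of 1.53, 0.917, 0.387 and 0.0473 in library 1 and of 0.381, 0.0779, 0.0898 and 0.00717 in library 2. These are bulk samples, in which fewer cells of a type and less RNA per cell cannot be told apart.

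Receptor transcripts were abundant, and Gabbr1 had the highest FPKM of all in both libraries. The levels of Gria2, Grin2b and Grin1 came in that order in each library. An FPKM of at least 1 in each library was reached by 32 of the 47 genes. The glutamate receptor genes held 50.4% of the summed receptor FPKM in library 1 and 47.6% in library 2, and the GABA receptor genes the rest. Across the 47 genes, which are not independent replicates, the FPKM ranks of the libraries had a Spearman correlation of 0.992.

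All 4 AMPA receptor genes were detected at this level. Gria2, whose edited subunit makes AMPA channels impermeable to calcium, stood at 158 FPKM in library 1 and 32.2 in library 2. The X-linked Gria3 followed at 74.3 and 11.6, and Gria1, the subunit best known from activity-dependent synaptic strengthening, at 63.6 and 9.49. Gria4 was lowest at 24.4 and 4.44. The order of the 4 genes was the same in both libraries.

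Of the NMDA receptor genes, Grin2b stood at 128 and 19.6 FPKM, Grin1, the subunit all NMDA receptors share, at 122 and 17.5, and Grin2a at 77.0 and 10.0. Grin2b and Grin2a encode the glutamate-binding subunits of the forebrain. The glycine-binding Grin3a followed at 6.28 and 1.16, just inside the minimum of 1, and Grin2c at 4.00 and 0.445 and Grin2d at 1.32 and 0.218 fell outside it in library 2. Grin3b was near 0, at 0.0893 and 0.0195. Of the kainate receptor genes, Grik5 stood at 22.6 and 3.43, Grik2 at 16.6 and 3.06 and Grik3 at 9.61 and 1.23. Grik4 (5.49 and 0.659) and Grik1 (3.73 and 0.457) reached 1 in library 1 only. The delta receptor gene Grid1 stood at 9.65 and 1.44.

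Among metabotropic receptor genes, Grm3, a receptor of astrocytes and neurons that lowers cyclic AMP, was highest at 61.0 and 10.0 FPKM. Grm5, which couples to calcium release, stood at 51.2 and 8.24, and the presynaptic Grm7 at 23.8 and 5.26. Grm2, an autoreceptor of glutamate terminals, stood at 16.3 and 2.58, above Grm8 in both libraries. Grm4 stood at 3.24 and 0.340. Grm6, known from retinal bipolar cells, was at 0.0103 in library 1 and listed at 0 in library 2.

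Of the GABA-A genes, Gabrb2, a beta subunit, stood at 72.2 and 12.9 FPKM. Of the alpha genes, Gabra4 stood at 43.6 and 7.11, the X-linked Gabra3 at 36.1 and 7.34, Gabra2 at 17.2 and 3.79 and Gabra5 at 16.2 and 3.55. Gabrd, the subunit of extrasynaptic receptors, stood at 29.6 and 3.32, and Gabrb1, Gabrg1 and Gabrg3 ranged from 6.48 to 21.0 and from 1.13 to 3.50. Gabbr1, the ligand-binding partner of the GABA-B pair, was the highest of all 47 genes at 238 and 37.9, and Gabbr2, the partner that couples to the G protein, stood at 81.8 and 14.8.

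The remaining GABA-A genes were at or near 0. Gabra6, known from cerebellar granule cells, stood at 0.166 and 0.0827 FPKM, and the X-linked Gabrq at 0.148 and 0.0294. The X-linked Gabre stood at 0.0185 in library 1 and was listed at 0 in library 2, and Gabrp was listed at 0 in both. Of the rho genes, known from the retina, Gabrr2 stood at 0.252 and 0.0570, Gabrr3 at 0.0662 and 0, and Gabrr1 at 0 and 0.0134.

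**Figure D1:**
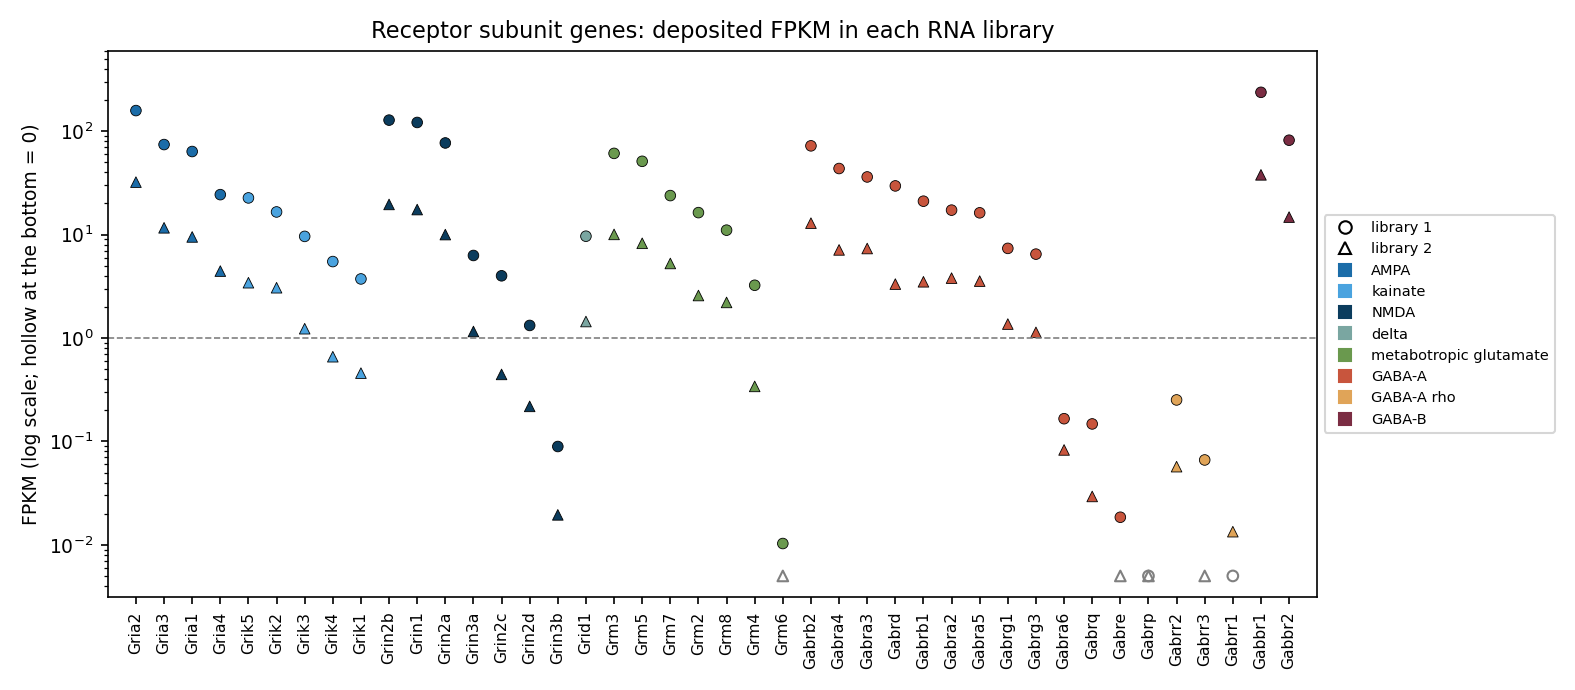
Deposited FPKM (log axis) of 42 receptor subunit genes in library 1 (circles) and library 2 (triangles), grouped and coloured by receptor class, with the dashed line at 1 FPKM and hollow symbols for values of 0. Each class has a few genes well above the line, such as Gria2, Grin2b, Grm3, Gabrb2 and Gabbr1, and the GABA-A rho genes all lie below it.

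The X-linked genes with usable depth were read from the C57 allele alone. Gria3 (ENSMUSG00000001986.15, mm10 X 41400854 to 41678601) had 586 C57 and 0 Spretus reads in library 1 and 181 and 0 in library 2. Gabra3 (ENSMUSG00000031343.12, X 72432681 to 72656848), an alpha subunit of inhibitory receptors, had 525 and 0 and then 216 and 0. Neither library held any Spretus read of either gene. The 767 reads of Gria3 allow a Spretus share of up to 0.391% and the 741 reads of Gabra3 one of up to 0.405%, for counting error only. Against that limit of 3 reads over both libraries, C57 reads were at least 256-fold higher for Gria3 and at least 247-fold higher for Gabra3. Both were called by edgeR (quasi-likelihood, Benjamini-Hochberg over all genes) toward C57 (adjusted p = 9.63e-08 for Gria3 and 4.93e-07 for Gabra3). A call here means an adjusted p below 0.05. Of all 397 tested X-linked genes 394 (99.2%) were called toward C57, so 2 of 2 is near the background of the chromosome. Gabrq had 6 C57 reads in library 1 and 3 in library 2 and Gabre 1 in library 1, with no Spretus read, which is too few for a share.

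A short gene inside the Gabra3 locus had more Spretus than C57 reads. Gm14735 (X 72467302 to 72470389, 3088 bp, named after its values were seen) lies wholly within the locus of Gabra3. Library 1 held 19 C57 and 34 Spretus reads of it (64.2%, exact Clopper-Pearson 95% interval 49.8 to 76.9%), and library 2 held 5 and 12 (70.6%, 44.0 to 89.7%). Its FPKM was 4.84 and 0.879. It was not called without the library block (log2 ratio of Spretus over C57 1.08, SE 0.34, adjusted p = 0.0823 in edgeR's quasi-likelihood test) or by DESeq2 (adjusted p = 0.779). The edgeR fit with the block called it toward Spretus (adjusted p = 0.0195). Whether these reads belong to this locus or to a similar sequence elsewhere was not tested.

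The 3 X-linked GABA-A genes stand side by side over 587 kb, in the order Gabre, Gabra3, Gabrq, and their promoters differ in CpG content. CpG is the dinucleotide at which most DNA methylation of mammals is found. The sequences below are the 250 bases before the RefSeq start site (GRCm38.p6, which is mm10), 5′ to 3′ on the gene's strand, with each CG in capitals. They are shown because Gabra3, read from C57 alone, has none, while its neighbours near 0 FPKM have many.
Gabre, chrX:72274722-72274971, minus strand: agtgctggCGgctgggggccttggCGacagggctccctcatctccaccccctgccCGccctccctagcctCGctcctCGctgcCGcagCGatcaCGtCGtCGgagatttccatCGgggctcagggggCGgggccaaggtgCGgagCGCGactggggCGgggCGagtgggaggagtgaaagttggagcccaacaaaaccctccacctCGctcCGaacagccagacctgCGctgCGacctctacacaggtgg
Gabra3, chrX:72656920-72657169, minus strand: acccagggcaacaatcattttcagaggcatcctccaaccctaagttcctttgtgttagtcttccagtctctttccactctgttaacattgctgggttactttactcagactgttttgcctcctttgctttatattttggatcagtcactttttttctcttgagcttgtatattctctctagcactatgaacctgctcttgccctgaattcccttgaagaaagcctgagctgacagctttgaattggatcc
Gabrq, chrX:72824928-72825177, plus strand: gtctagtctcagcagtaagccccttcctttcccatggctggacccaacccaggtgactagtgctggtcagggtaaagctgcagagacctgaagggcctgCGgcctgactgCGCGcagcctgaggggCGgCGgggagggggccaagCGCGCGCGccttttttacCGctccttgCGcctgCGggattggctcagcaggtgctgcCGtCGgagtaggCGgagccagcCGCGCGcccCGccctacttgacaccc
The Gabre window held 21 CG, the Gabrq window 19 and the Gabra3 window 0. The table lists a start site of Gabra3 further downstream as well, and its window also held 0. Over all promoters, 92.1% of such 250-base windows held at least 1 CG and 50.4% held at least 6. Among longer windows of 250 bases before and 50 after the start, 5.43% of all 32851 had no CG, and the median window had 7. Of the 32 receptor genes with a window, Gabra3 alone had none in every window. Motif letters were searched as CG, which reads the same on both strands.

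Of the 4 X-linked genes, Gria3 and Gabrq had a listed methylation difference between the alleles. The authors' list holds 1600 regions with levels in which the alleles differ, and a gene without a region has unknown levels. At Gabrq, a region of 503 bp (chromosome X, 72825350 to 72825853) begins 172 bp after the start site. Its methylation level in the authors' deposited table was 0 on C57 and 0.716 on Spretus, as fractions from 0 to 1. Gabra3 had no listed region in its locus, and the nearest to it was this same region at Gabrq, 169 kb away. The region nearest to Gabre lay 293 kb away. At Gria3 a region of 451 bp (41406157 to 41406608) lies inside the gene, 5.30 kb from its lower-coordinate end, and the authors' deposited table gives 0.381 on C57 and 0.720 on Spretus.

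Against the 519 X-linked regions higher on Spretus, the region at Gabrq had a common C57 level and that at Gria3 a high one. Their medians in the authors' deposited table were 0.0150 for C57, 0.706 for Spretus and 466 bp in length, and 203 of them stood at 0 on C57. The C57 level of the region at Gria3 was exceeded by 7 of the 519 (1.35%), and 4 (0.771%) had a smaller difference between the alleles. Its Spretus level lay near the middle, with 249 regions higher. Of 317 X-linked genes with an FPKM of at least 1 in each library, 216 (68.1%) had a region in or within 2 kb, so Gabra3 is among the 101 (31.9%) without. Of 2290 other X-linked genes 221 (9.65%) had one, and Gabrq is among these. Depth behind the levels is unknown, and no test was made.

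Among autosomal receptor genes, 2 had a listed region in or within 2 kb, and both regions were very short. In Gria1 a region of 14 bp (chromosome 11, 57017642 to 57017656) had, in the authors' deposited table, levels of 0.983 on C57 and 0 on Spretus. In Grin3a a region of 8 bp (chromosome 4, 49795822 to 49795830) had 0.970 and 0 in the authors' deposited table. Both were higher on C57, as were 738 autosomal regions with a median length of 30.5 bp, of which 260 (35.2%) were no longer than that in Gria1 and 347 (47.0%) stood at 0 on Spretus. The bases of the Spretus allele under these regions were not analysed. Beyond that distance, a region of 495 bp (chromosome 6, 135699733 to 135700228) lies 13005 bp outside Grin2b, and the authors' deposited table gives 0.889 on C57 and 0.364 on Spretus. Both genes are detected, so 2 of 30 detected autosomal receptor genes (6.67%) had a region, against 254 of 8646 detected autosomal genes (2.94%). Their loci were also longer, with a median of 232 kb against 24.9 kb. The Spretus read share of Gria1 was 47.7% ± 0.155 (SD, n = 2) and that of Grin3a 47.6% ± 6.28, both close to the autosomal median of 48.2%.

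**Figure D2:**
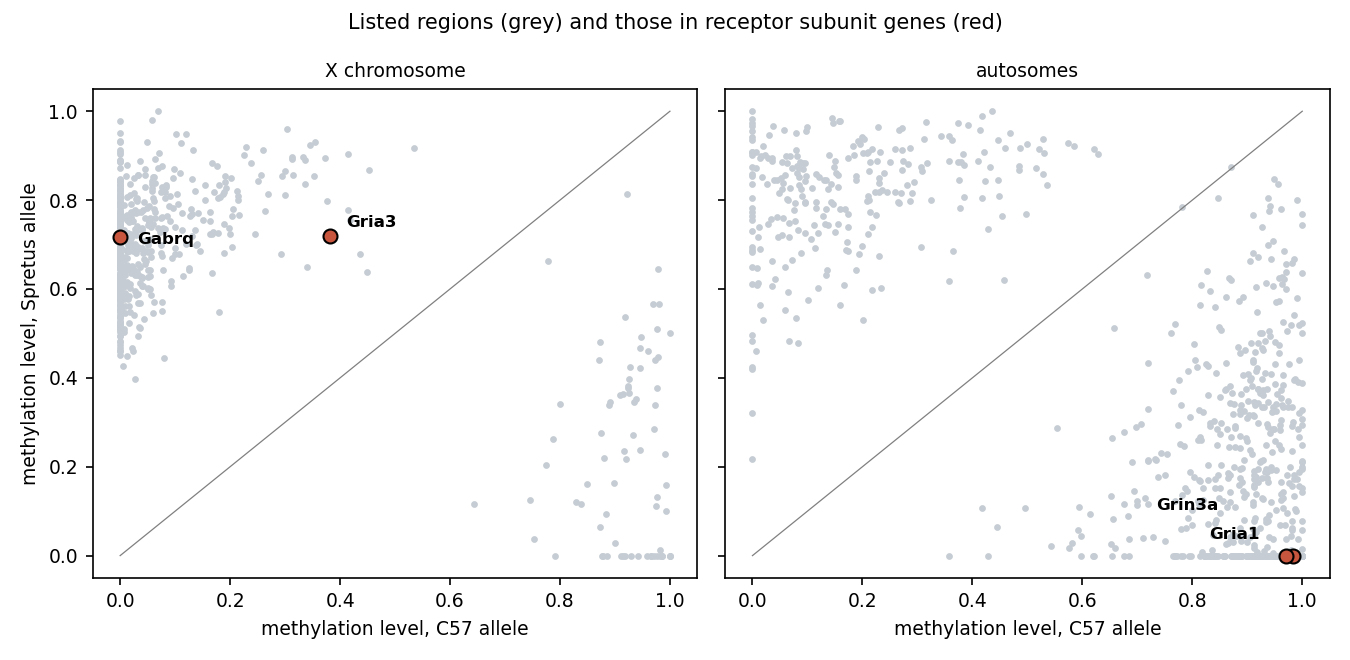
Methylation level of the C57 allele (x axis) and the Spretus allele (y axis), as fractions, for every listed region on the X chromosome (left) and the autosomes (right) in grey, with the 4 regions in receptor subunit genes in red and a line of equal levels. Gabrq is among the 203 of 519 X-linked regions higher on Spretus that lie at 0 on C57. Gria3 lies further right at 0.381, and Gria1 and Grin3a lie together at 0 on Spretus.

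Autosomal receptor genes drew on both alleles, and calls by allele depended on whether the library entered the fit as a block. Of the 43 autosomal genes 35 had 20 or more reads assigned to an allele in every library. The same 35 also had the 10 reads per library that the test asked for. Their Spretus share had a median of 47.7% (quartiles 45.2 and 50.5%), against a median of 48.2% (44.3 and 51.4%) over 9737 autosomal genes. A mean share between 45 and 55% was found for 24 of the 35 (68.6%), against 60.7% of all autosomal genes, whose reads are fewer (a median of 298 per tested gene against 840 per tested receptor gene). In edgeR's quasi-likelihood test with allele as the only term, 0 of 35 were called, against 629 of 11584 autosomal genes (5.43%). At an unadjusted p under 0.05, 2 of the 35 passed (Gabra2 and Gabrg1), against 15.4% of autosomal genes, and DESeq2 called 0 of the 35 (against 2.20% of autosomal genes), with 0 at that unadjusted p. The genes just inside the read minimum were Grik1 with 23 reads in library 2 and Grin2c and Grm4 with 29 each. Just outside it, Gabra6 had 6 and 5 reads and Grin2d 46 and 3.

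Several abundant genes had Spretus shares near the autosomal median of 48.2%. Gabbr1 had 968 C57 and 965 Spretus reads in library 1, then 341 and 324 in library 2, for a Spretus share of 49.3% ± 0.849 (SD, n = 2). Gria2 had 1283 and 1133 and then 440 and 370, a share of 46.3% ± 0.860. Grin2a had 1937 and 1781 and then 599 and 548, a share of 47.8% ± 0.0886. In each of these 3 genes both libraries gave nearly the same share, with an SD of at most 0.860. Grm3 stood at 51.1% ± 1.11, Grm5 at 47.2% ± 3.38, Grm7 at 49.2% ± 3.59 and Grik5 at 47.6% ± 1.37. Grik2 stood at 52.3% ± 0.683, Grik3 at 50.3% ± 1.09 and Gabbr2 at 47.7% ± 1.25. Grid1 differed more between libraries, with 49.8% in library 1 and 40.5% in library 2 (45.2% ± 6.59).

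**Figure D3:**
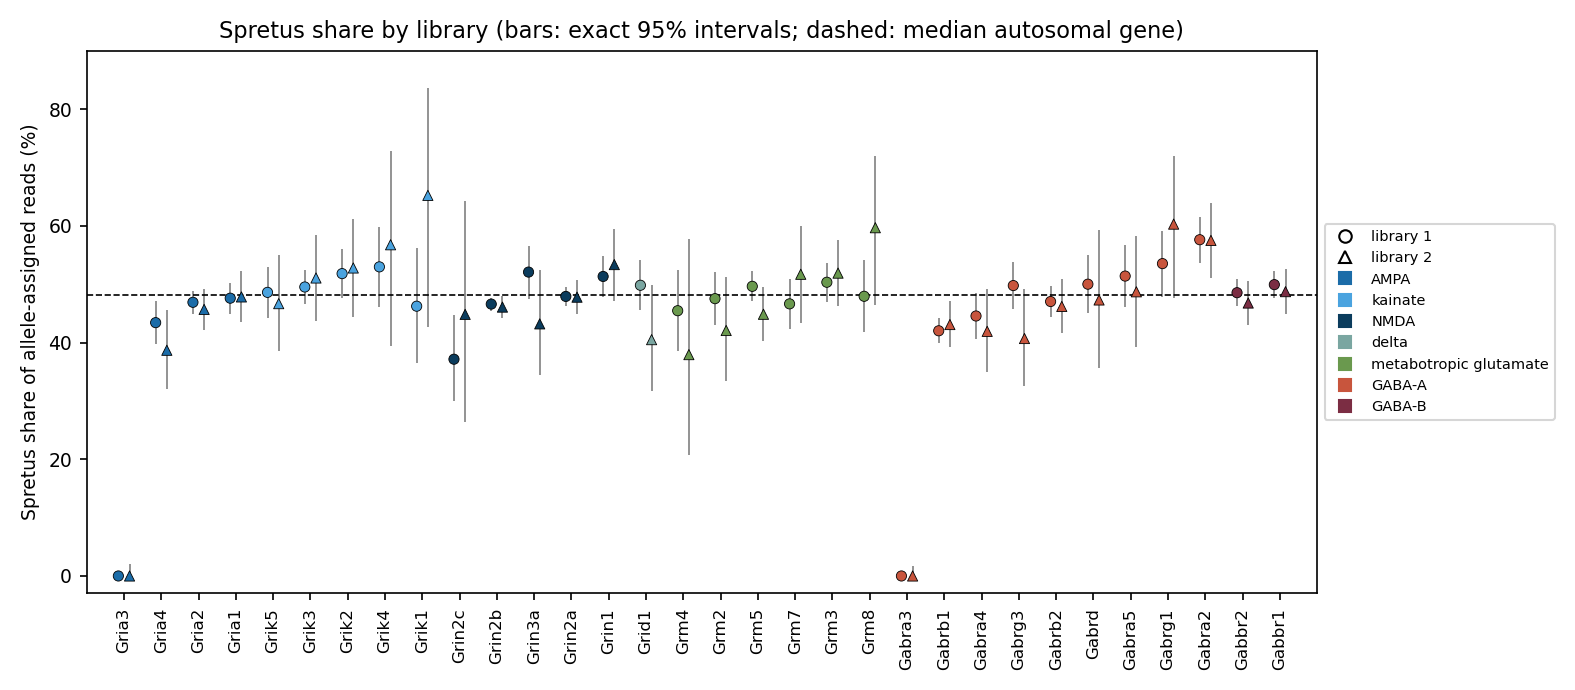
Spretus share of allele-assigned reads (y axis, percent) in library 1 (circles) and library 2 (triangles) for 32 receptor subunit genes with enough reads, by class, with exact 95% intervals as bars and the median autosomal gene as a dashed line. Gria3 and Gabra3 lie at 0, and the autosomal genes lie around the line, with Gabra2 highest of the GABA-A genes in library 1.

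Counts of both alleles come from the same RNA, and when the library was added to the fit as a block, 7 of the 35 autosomal genes were called. The same fit called 2603 of 11584 autosomal genes (22.5%), so the share of receptor genes is near the background. Toward Spretus were 3 (Gabra2, Gabrg1 and Grin1, against 11.1% of autosomal genes), and toward C57 4 (Gria4, Gabrb1, Grin2b and Grin2c, against 11.3%). Gabra2, an alpha subunit gene whose level is known to vary among mouse strains, had 267 C57 and 363 Spretus reads in library 1 and 102 and 138 in library 2. Its Spretus share was 57.6% ± 0.0842 (SD, n = 2), higher than C57 in both libraries, and 6.46% of autosomal genes had a higher share. Gabrb1, a beta subunit gene, had 1198 and 868 and then 358 and 271, a share of 42.5% ± 0.757. Gria4, an AMPA subunit of interneurons, had 395 and 303 and then 130 and 82, a share of 41.0% ± 3.34. For these 3 of the 35 genes alone, the exact interval lay wholly on the same side of the share of all autosomal reads (47.9% and 48.0%) in each library. The same count was not made over all autosomal genes, so it has no background. Intervals narrow with depth, and tested receptor genes had a median of 840 reads against 298 for tested autosomal genes.

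The remaining called genes were less even between libraries or closer to balance. Gabrg1 had 145 and 167 reads and then 27 and 41, a share of 56.9% ± 4.79. Grin1 had 386 and 407 and then 125 and 143, a share of 52.3% ± 1.44. Grin2b, with the most reads of all, had 4204 and 3667 and then 1429 and 1221, a share of 46.3% ± 0.363. Grin2c, known from astrocytes and the cerebellum, had 110 and 65 and then 16 and 13, a share of 41.0% ± 5.43. In the edgeR fit with the block (Benjamini-Hochberg adjusted), the log2 ratio was 0.57 (SE 0.08, adjusted p = 1.48e-06) for Gabra2 and -0.32 (SE 0.05, adjusted p = 1.46e-06) for Gabrb1. It was -0.32 (SE 0.09, adjusted p = 0.00657) for Gria4 and -0.08 (SE 0.02, adjusted p = 0.0375) for Grin2b in the same edgeR fit. Gabrg1, Grin1 and Grin2c had adjusted p of 0.0282, 0.0334 and 0.0298 in that edgeR fit. Without the block, adjusted p in edgeR was 0.235 for Gabra2, 0.621 for Gabrb1 and 0.305 for Gria4. The block leaves 1 residual degree of freedom, against 2 without it.

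**Figure D4:**
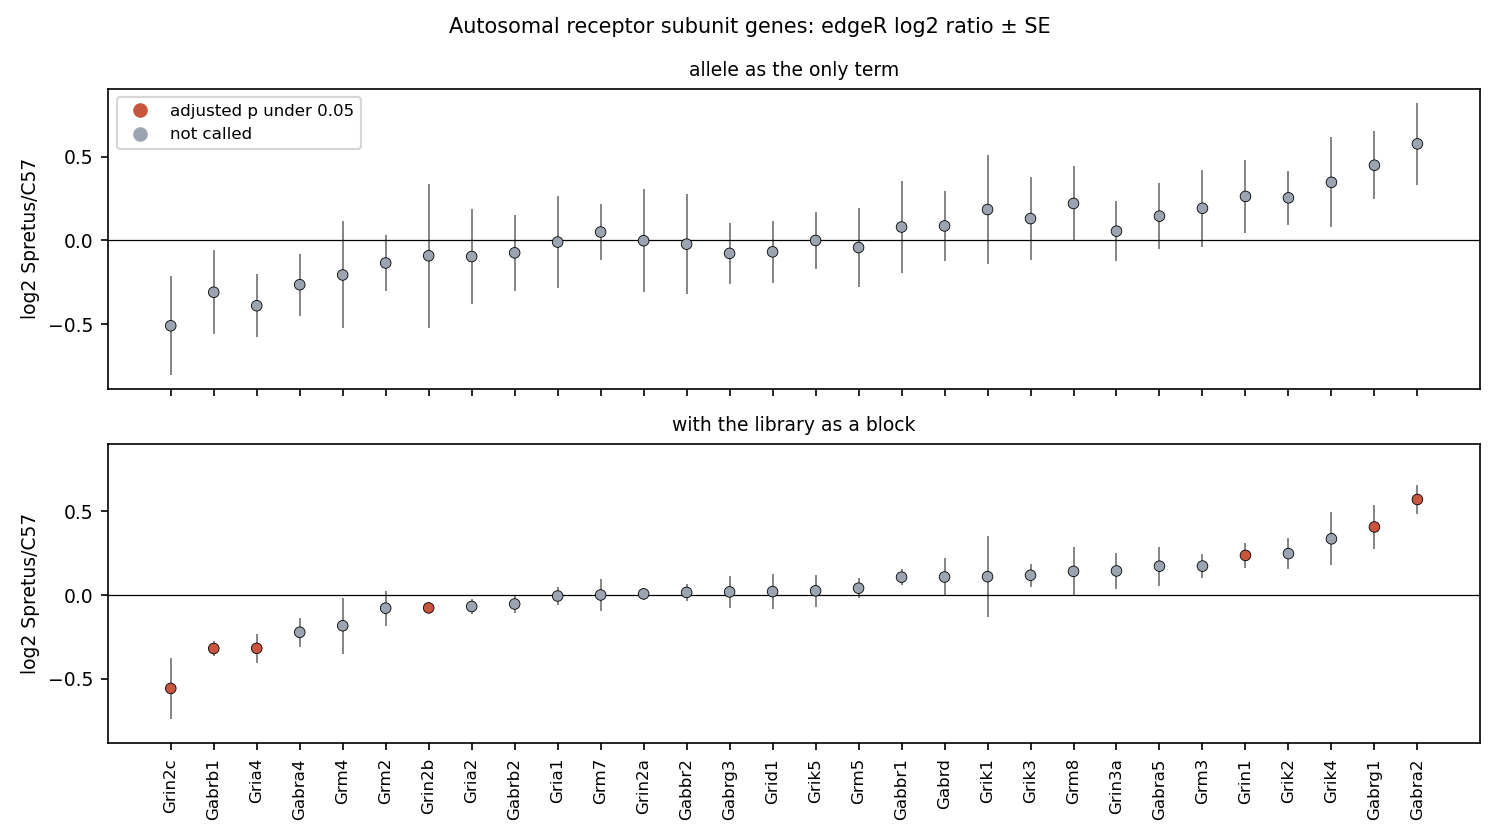
Log2 ratio of Spretus over C57 reads (y axis) with its standard error for 30 of the 35 tested autosomal receptor subunit genes, from edgeR with allele as the only term (top) and with the library as a block (bottom), in the order of the lower panel. No gene is coloured as called in the top panel, and 7 are in the bottom panel, where the bars are shorter.

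In the GABA-A cluster of chromosome 5, neighbouring genes leaned to different alleles. On chromosome 5 (70751047 to 72149037) the order is Gabrg1, Gabra2, Gabra4, Gabrb1. The first pair stood above the autosomal median of 48.2%, at 56.9% and 57.6%. The second pair stood below it, with Gabra4 at 43.2% ± 1.86 (SD, n = 2) and Gabrb1 at 42.5%. The exact intervals of Gabrg1 (47.8 to 59.2% and 47.7 to 72.0%) and of Gabra4 included that median in both libraries. Neither edgeR fit called Gabra4. The exact intervals of Gabra2 and Gabra4 did not overlap in either library, at 53.7 to 61.5% against 40.7 to 48.5% in library 1 and 51.0 to 63.8% against 35.0 to 49.1% in library 2. The difference itself was not tested. Gabra4 and Gabrb1 run in opposite directions from RefSeq start sites 387 bp apart, and their loci overlap by 0.196 kb. Summed over the 4 genes the cluster gave 46.1% and 47.0% Spretus, so the opposite leanings of its genes do not appear in the sum.

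Of the cluster genes on chromosome 7, which stand beside the imprinted Prader-Willi and Angelman domain, Gabra5 had 175 C57 and 185 Spretus reads in library 1 and 59 and 56 in library 2. Its share was 50.0% ± 1.90 (SD, n = 2). Gabrg3 stood at 45.2% ± 6.42, with 49.8% in library 1 and 40.7% in library 2. The reads of Gabra5 are uncertain, because its locus overlaps another gene and the counting strand is not given in the sources used here. On chromosome 11, Gabrb2 had 784 and 696 reads and then 247 and 212, a share of 46.6% ± 0.594. The rho genes Gabrr2 and Gabrr1 on chromosome 4 had 6 reads and 1 read in all.

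**Figure D5:**
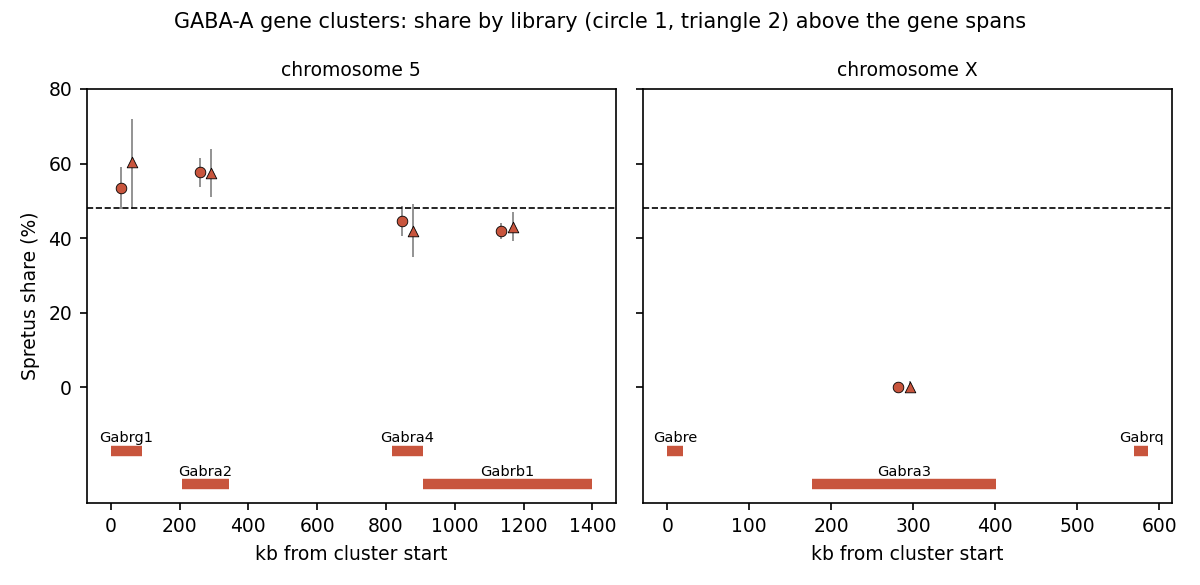
Spretus share (y axis, percent) in library 1 (circles) and library 2 (triangles) with exact 95% intervals, at the middle of each gene with enough reads in the GABA-A clusters of chromosomes 5 and X, over bars that show each gene's span in kb from the start of its cluster. The dashed line is the median autosomal gene. The points of the chromosome 5 cluster step from above the line to below it, with the bars of Gabrg1 and Gabra4 reaching the line. Gabra3 lies at 0.

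Genes that serve these receptors were described from 9 lists of auxiliary subunits, scaffolds, synaptic partners, transmitter enzymes and transporters and glycine receptors, 101 genes in all. Of these 78 had an FPKM of at least 1 in each library and 95 were tested. In edgeR's quasi-likelihood test without the block, 5 were called toward C57 and 0 toward Spretus, and 4 of the 5 are X-linked. The autosomal call was 1 of 91 (1.10%, against 5.43% of autosomal genes). It was Srr, the serine racemase that makes the NMDA receptor co-agonist D-serine, with 482 C57 and 254 Spretus reads in library 1 and 156 and 73 in library 2. Its Spretus share was 33.2% ± 1.86 (SD, n = 2), with a log2 ratio of -0.89 (SE 0.19, adjusted p = 0.0110 in edgeR). DESeq2, also with allele as the only term, did not call it (adjusted p = 0.0561). The edgeR fit with the block called it (log2 ratio -0.83, SE 0.08, adjusted p = 3.24e-10). At an unadjusted p under 0.05, 11 of the tested genes were toward C57 and 3 toward Spretus (Glud1, Plcl1 and Cacng5) in edgeR, where 15.4% of autosomal genes passed. In DESeq2 5 and 0 did, against 5.75% of autosomal genes.

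The X-linked partners were read from C57 as were the receptors. Dlg3, a scaffold of NMDA receptors, had 383 C57 reads and 1 Spretus read in library 1 and 120 and 0 in library 2. The GABA-B auxiliary gene Kctd12b had 41 and 0 and then 11 and 0, and the glycine receptor gene Glra2 62 and 0 and then 14 and 0. Unlike Gabra3, these 3 had a listed region in or within 2 kb that was higher on Spretus, 2 of them at Dlg3. Glra4 had 1 read in all.

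With the library as a block, 23 of the 91 autosomal genes of the lists were called (25.3%, against 22.5% of autosomal genes). Of all 95 tested genes, 17 were then toward C57 and 10 toward Spretus. By list, calls toward C57 and toward Spretus with the block were 5 and 2 of 19 AMPA auxiliary genes, 2 and 2 of 18 scaffold genes, 2 and 0 of 6 delta receptor partners, 2 and 4 of 16 GABA-A scaffold genes, 1 and 0 of 7 GABA-B genes, 4 and 2 of 14 glutamate synthesis and transport genes, and 1 and 0 of 3 glycine receptor genes. No call was made among 2 kainate auxiliary genes or among 10 genes of GABA synthesis and transport, Gad1 and Gad2 among them. Median autosomal log2 ratios without the block ranged from -0.48 for the glycine receptor genes to 0.11 for the GABA-A scaffold genes, against 0.02 over all autosomal genes. The glycine receptor value is the middle of only 2 tested autosomal genes. These lay on different sides of 0 and neither was called in either fit, so it gives no lean of the class.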

How the data were processed

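RNA-seq and MethylC-seq were run on 2 libraries each. Each RNA table, as deposited by the authors, gives an FPKM value per gene and a count of reads for either allele, per the file headers. The submitters' processing notes name TopHat2 2.0.9, Cufflinks 2.1.1, HTSeq 0.6.0 and mm10. Their roles, the allele assignment, the annotation and the counting strand are not stated there. The authors also deposited a list of differentially methylated regions with 1 methylation fraction per allele. For its thresholds, cytosine context, coverage and pooling nothing is given in the sources used here, and 13 of 1613 regions without levels were left out.

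Gene identifiers at more than 1 locus (49) were used once. The 11981 genes that reached 10 allele-assigned reads in both libraries were tested with edgeR 4.0.16 in R 4.3.3 (quasi-likelihood, TMM scaling, allele as the only term), and p-values were adjusted over all of them by Benjamini-Hochberg at 0.05. DESeq2 1.42.0, also with allele as the only term, and an edgeR fit with the library as a block were alternatives. The block follows the design, since 1 RNA preparation gave both counts. Deviations of the paired columns correlated at 0.799 over 1533 autosomal genes. Fitted folds of genes with no Spretus read depend on the prior count, so bounds against 3 reads are given. Intervals are exact Clopper-Pearson 95% intervals and, like the limits, cover counting error only, since reads are not independent molecules. The test was checked on simulated counts drawn without the correlation of the paired columns. The changes set there were larger than the fitted ratio of any tested autosomal receptor gene. That check therefore does not show how the test performs on paired columns or on small ratios.

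Genes with values in every library were all X-linked receptor genes, those called with or without the block, the 3 with the highest FPKM per class, those with a listed region within 2 kb and those near a minimum. From the other lists, called and X-linked genes were named. Further receptor genes and the genes passing an unadjusted p were added after their values were seen. The receptor genes and all lists were chosen with earlier results of these data known. Some genes of these groups are included in counts but not reported here. Coordinates are mm10, with gene starts moved to count from 1. Promoters came from RefSeq GRCm38.p6, matched by symbol for 32 of 47 genes.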

Additional observations from a re-analysis of the deposited data

How the results depend on the processing

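Only Gria3 and Gabra3 were called among receptor genes, and both remained called under all 7 alternatives with a test. With the replicate block, which pairs the alleles of a library, 9 receptor genes were called instead of 2 (6 toward C57 and 3 toward Spretus). Of the other lists, 27 genes were called instead of 5 (17 and 10). Over all autosomal genes, the block raised calls from 5.43% to 22.5%. With it, 7 of 35 autosomal receptor genes and 23 of 91 autosomal list genes were called, which is near that background. No direction reversed among the 9 receptor genes called in either fit or at Dlg3, Srr, Kctd12b and Glra2. With the block the log2 ratio changed sign at 6 receptor genes that neither fit called (Gabrg3, Gabbr2, Grin2a, Grid1, Grik5 and Grm5), from -0.08 without it to 0.02 at Gabrg3 and from -0.04 to 0.04 at Grm5. With at least 50 reads per library 3 genes of the other lists were called, all 3 toward C57, because fewer genes were tested, and with at least 1 read 1 was called toward Spretus. DESeq2, which also ignores the pairing of alleles in a library, ended the call of Srr (adjusted p = 0.0561). The edgeR fit with the block kept that call (adjusted p = 3.24e-10). An FPKM minimum of 5 left 17 of 32 receptor genes, and 2 of 4 regions were 50 bp or longer. Giving both alleles of a library the same total moved the median autosomal log2 ratio from 0.02 to -0.11.

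Leaving out each library in turn gave values with no test, since no residual degrees of freedom remain. The median autosomal share was then 47.3 to 48.5%, and 32 to 38 receptor genes were detected. Without replicate 1 the log2 ratio was 0.70 for Gabrg1, -0.55 for Gria4 and -0.18 for Grin2c, and without replicate 2 it was 0.33, -0.24 and -0.60. Library 2, with fewer reads, limits the shares of genes such as Grik1 (55.7% ± 13.4, SD, n = 2).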

Other observations

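Reads assigned to an allele per unit of FPKM differed widely between the 32 detected receptor genes in library 1, with a median of 23.0 and up to 119 for Grik3. Gabrb1 had 98.2, Gabrg3 98.1 and Grin2b 61.5. Allele-assigned read counts are therefore not compared between genes here.

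After scaling by the median ratio of the libraries, the level in library 2 over library 1 ranged from 0.638 for Gabrd to 1.25 for Grm7 among the detected receptor genes, with a median of 1.01. Taken between the median FPKM of each list, the scaled ratio was 1.46 for the excitatory neuron list and 1.04 for the inhibitory neuron list. It was 0.653 for the oligodendrocyte list and 0.341 for the blood list. Summed FPKM gave another order, since the excitatory list (779 and 136) then had a lower ratio than the inhibitory list (573 and 117). The part of these lists in the differences between libraries was not tested.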
